A study of Mus musculus with 8 samples.

Results

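The genes described here are 10 matrix glycoproteins and proteoglycans that are not collagens: Fn1, Fbn1, Fbln1, Fbln2, Sparc, Tnc, Postn, Spock1, Podnl1 and Ccdc80. They were taken by gene name from the 22026 genes listed in the deposited files, with the reads of all transcripts of a gene added together. Reads were found for 9 of the 10 genes, and the same 9 passed the filter on low counts that left 11970 genes for testing. Spock1, a testican proteoglycan (ENSMUSG00000056222, chr13:57421195-57908332, GRCm38, minus strand), had 0 reads in each of the 8 libraries, which allows at most 0.285 CPM (reads scaled to the library's size) in the shallowest library and at most 0.116 CPM in the deepest, at a floor of 3 reads. These limits cover counting error only.

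The study sequenced bulk RNA from the mouse mammary carcinoma lines 4T1 and TS/A, both of BALB/c origin, in 4 groups of 2 libraries. Per the sample characteristics, each line carried either an empty virus vector or a vector expressing Gpr56 (Adgrg1), an adhesion G protein-coupled receptor known to bind type III collagen. The medium was RPMI with 10% FCS, and the design text places the transduced cells on type III collagen for 72 h. The titles use other words for the same groups, Emp_Control and Emp_ColIII, so vector and collagen culture cannot be told apart from the labels, and the group names used here are those of the characteristics. No source used here gives the promoter that drives Gpr56 or says whether a transduced line was a pool or a clone. The labels number the 2 libraries of a group without tying them to separate cultures, so every p-value reflects the spread between these libraries, which may be technical.

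Matrix glycoproteins and proteoglycans are secreted molecules that assemble around cells. Fibronectin and fibrillin build fibrils, fibulins bridge fibrils and basement membranes, and the matricellular proteins Sparc, tenascin-C and periostin change how cells attach to the matrix rather than bearing load. Carcinoma cells make many of these molecules themselves, and fibronectin, tenascin-C, periostin and Sparc are long-known components of mammary tumour matrix.

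Fibronectin RNA is spliced at 2 cassette exons, EIIIB and EIIIA, and the EIIIB exon is shown because its share of Fn1 reads was higher in every TS/A library than in every 4T1 library, as described below. In GENCODE M21 it lies at chr1:71613763-71614035 of GRCm38 on the minus strand, within the coding sequence, and 1 full-length transcript, ENSMUST00000055226, holds it. The second sequence is the joined RNA when the exon is skipped, taken from ENSMUST00000188894. Capitals mark the exon of 273 bases, and lower case marks 12 bases of each neighbouring exon.
Fn1 EIIIB exon included: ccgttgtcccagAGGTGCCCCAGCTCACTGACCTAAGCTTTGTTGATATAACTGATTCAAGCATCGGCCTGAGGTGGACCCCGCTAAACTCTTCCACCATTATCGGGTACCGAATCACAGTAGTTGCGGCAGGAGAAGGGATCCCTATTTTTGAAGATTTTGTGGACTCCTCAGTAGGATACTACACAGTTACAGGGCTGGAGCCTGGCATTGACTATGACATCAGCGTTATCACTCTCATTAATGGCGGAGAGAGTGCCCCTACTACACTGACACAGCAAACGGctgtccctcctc
Fn1 EIIIB exon skipped: ccgttgtcccagctgtccctcctc

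Promoter sequences of Tnc and Postn are shown because the RNA of these genes was far lower in TS/A than in 4T1. Each is the 250 bases upstream of a RefSeq transcript start on GRCm38.p6, at chr4:64047016-64047265 on the minus strand for Tnc and chr3:54360857-54361106 on the plus strand for Postn. Capitals mark matches to the TATA box (letters TATAAA) and to the GC box (letters GGGCGG).
Tnc promoter: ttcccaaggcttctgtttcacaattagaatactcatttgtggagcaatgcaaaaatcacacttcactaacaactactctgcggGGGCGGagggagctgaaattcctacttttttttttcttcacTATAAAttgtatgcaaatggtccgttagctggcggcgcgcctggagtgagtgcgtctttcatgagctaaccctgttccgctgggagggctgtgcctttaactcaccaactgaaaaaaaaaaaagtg
Postn promoter: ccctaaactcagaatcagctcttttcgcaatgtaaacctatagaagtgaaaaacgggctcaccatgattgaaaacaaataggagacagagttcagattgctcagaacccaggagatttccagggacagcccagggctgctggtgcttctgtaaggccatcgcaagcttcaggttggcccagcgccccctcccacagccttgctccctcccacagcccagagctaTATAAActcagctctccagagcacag
Besides these, the windows were searched on both strands for the AP-1 motif (letters TGANTCA), the TEAD motif (letters GGAATG) and the E-box of Zeb and Snail (letters CAGGTG), and the matches in the printed windows did not overlap. Tnc held 1 TATA box and 1 GC box, and Postn held 1 TATA box. Among 32851 upstream windows of this length, 12.4% held the TATA box, 32.7% the GC box, 6.75% the AP-1 motif, 12.6% the TEAD motif and 17.2% the E-box. GC content was 44.8% for Tnc and 52.0% for Postn against a median of 52.4% over all windows. A match describes the letters only. Promoter entries were also found for Fbln1, Fbln2, Fbn1, Sparc and Spock1, and none for Fn1, Podnl1 and Ccdc80.

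Depth was 10510569 to 25959142 reads per library. Adgrg1, the transduced gene, stood at 2.65 ± 0.170 CPM in 4T1 empty and 95.3 ± 6.78 CPM in 4T1 Gpr56 (SD, n = 2). In TS/A it stood at 25.6 ± 13.1 CPM in the libraries labelled empty and 17.96 ± 6.60 CPM in those labelled Gpr56, so the label is not borne out by this gene in TS/A, and TS/A groups are named below by label alone. The 2 TS/A empty libraries stood apart from each other: chi-square per degree of freedom over genes was 123, against 3.64 to 18.0 in the other groups. The Fn1 results in TS/A and the vector effect on Podnl1 in 4T1 are given with and without each. The difference of vector effects is given with both and as a range over alternative fits that include those without each. Other line differences with the empty vector are given with both. Over the alternative fits, the log2 fold change of that comparison ran from 2.32 to 3.20 for Fbn1 and from -1.13 to -0.63 for Fbln2. The lines differed in cell type markers. The summed level of 8 epithelial markers was 2132 to 3070 CPM in 4T1 and 190 to 257 CPM in TS/A. In TS/A, Krt18 at 148 to 204 CPM made up most of that sum and Krt19 stood at 30.6 to 55.7 CPM. Cdh1, Epcam and Esrp1 were each under 0.2 CPM there. The 12 fibroblast markers summed to 8.78 to 15.8 CPM in 4T1 and 142 to 355 CPM in TS/A. Col1a1 made up most of the TS/A fibroblast sum, and Thy1, Dpt and Fap had 0 reads in all 8 libraries. With the empty vector, 2 of 4 fibroblast markers tested were higher in TS/A and 0 lower, where 23.9% of all genes were higher (edgeR). Pdgfra did not pass, at 11.7 ± 4.67 CPM in TS/A empty and 13.3 ± 0.00758 CPM in 4T1 empty. Col1a2 and Pdpn were at 0.394 CPM or less in every library. Of the immune markers, Cd68 stood at 2.21 to 17.3 CPM and Cd14 at 5.37 to 11.2 CPM, with Adgre1, Cd3e and Tyrobp at 0 in all libraries, and 6 endothelial markers summed to under 1 CPM throughout. In bulk RNA, fewer cells of a type and less RNA per cell cannot be told apart.

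Levels were first set in order within each group on the length-scaled RPKM scale. With the empty vector, 4T1 had most Fn1 RNA (167 ± 4.11 RPKM, SD, n = 2), then Sparc (104.7 ± 3.15) and Fbln2 (104.6 ± 4.87), which did not differ beyond their spread. Podnl1 (7.91 ± 1.11) and Tnc (3.51 ± 0.0535) followed, and Fbln1, Postn, Fbn1 and Ccdc80 lay between 0.0994 and 0.798 RPKM. Fn1, Sparc and Fbln2 were thus abundant, each above at least 96.4% of all 22026 genes. Podnl1 (above 70.6%) and Tnc (62.0%) came next, and the other 4 detected genes were above 45.9% to 53.2%. These shares count genes without a read among those below. In 4T1 empty, genes at 0 shared rank 14110, where Podnl1 ranked 6471, Tnc 8368, Fbln1 10308 and Ccdc80 11915. The last 4 genes thus lay low among the genes with reads. In TS/A with the empty vector Sparc led (160 ± 13.0 RPKM), with Fn1 at 107 ± 82.8 and Fbln2 at 61.3 ± 19.6, and the spread of Fn1 spanned both neighbours. Fbln1 (6.43 ± 1.40 RPKM), Ccdc80 (5.57 ± 1.91) and Podnl1 (3.95 ± 0.0495) came next in TS/A. Fbn1 stood at 1.32 ± 0.587 RPKM, Tnc at 0.110 ± 0.0350, and Postn at 0. Sparc made up 26.1% and 27.7% of the RPKM of the 10 genes together in the 4T1 empty libraries and 39.3% and 57.7% in the TS/A empty libraries.

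**Figure D1:**
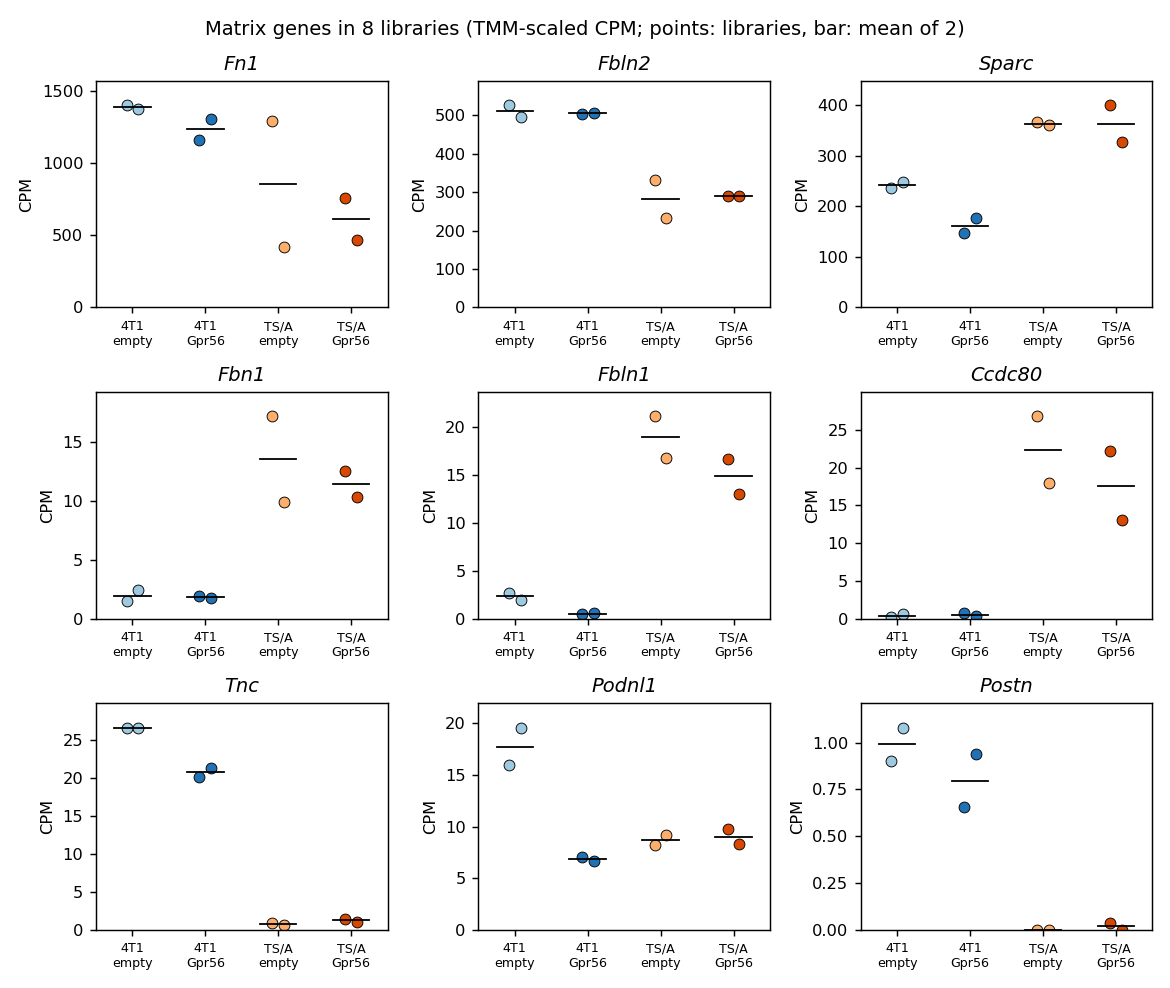
Level of each of the 9 detected genes in the 8 libraries, in CPM scaled by TMM factors, which even out composition between libraries (vertical axes, linear from 0, with their own range per gene), by line and vector label (horizontal axis). Points are libraries and bars are means of 2. Fbn1, Fbln1, Ccdc80 and Sparc were higher in every TS/A library than in every 4T1 library, Tnc, Postn and Fbln2 were lower, and the Fn1 points of TS/A empty lie 3.06-fold apart.

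The comparison of the lines with the empty vector asked how matrix RNA differed between the 4T1 and TS/A libraries labelled empty. Of the 9 genes tested, 8 passed the threshold, 4 higher and 4 lower in TS/A, where 47.4% of all 11970 genes passed, 23.9% higher and 23.5% lower (edgeR's quasi-likelihood test, Benjamini-Hochberg adjusted p under 0.05). Fbn1, Fbln1, Ccdc80 and Sparc were higher in TS/A, and Tnc, Postn, Podnl1 and Fbln2 were lower. The median log2 fold change of the 9 genes was -0.70, also with Postn at its bound, against 0.01 over all genes. Groups did not overlap for 9 of 9 genes, as for 72.6% of all genes. The 4 libraries labelled Gpr56, which share none with the first 4, gave 7 of 9 genes past the threshold, 4 higher and 3 lower, against 54% of all genes (26.5% higher and 27.4% lower), and no overlap for 9 of 9 genes against 84%. Their median was 0.39 against -0.002 over all genes. Since so many genes differ between these lines, the counts alone say little about matrix genes.

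Among the fibril proteins, Fbn1 encodes fibrillin-1, the core of microfibrils (ENSMUSG00000027204, chr2:125300594-125507993, GRCm38, minus strand). Its level was 1.46 and 2.44 CPM in 4T1 empty, 1.92 and 1.78 in 4T1 Gpr56, 17.1 and 9.91 in TS/A empty, and 12.5 and 10.3 in TS/A labelled Gpr56. Every TS/A library was above every 4T1 library. The log2 fold change of TS/A over 4T1 was 2.78 (SE 0.34, adjusted p = 3.7e-04, edgeR) with the empty vector and 2.61 (SE 0.35, adjusted p = 5.1e-04) with the Gpr56 label. The 4T1 libraries held only 19 to 52 Fbn1 reads each.

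Fn1 encodes fibronectin, the fibril-forming glycoprotein that integrins bind (ENSMUSG00000026193, chr1:71585520-71653200, minus strand). Its level was 1401 and 1373 CPM in 4T1 empty and 1163 and 1309 CPM in 4T1 Gpr56. In TS/A it was 1290.1 and 422 CPM in the libraries labelled empty and 758 and 467 CPM in those labelled Gpr56. All TS/A libraries except empty library 1 lay at or below 758 CPM, and TS/A empty library 1 reached the range of the 4T1 Gpr56 libraries. The line difference with the empty vector was -0.70 (SE 0.44, adjusted p = 0.22, edgeR) and did not pass. It was -1.72 (SE 0.21, adjusted p = 1.9e-05) without TS/A empty library 1 and -0.11 (SE 0.20, adjusted p = 0.66) without library 2. With the Gpr56 label it was -1.01 (SE 0.44, adjusted p = 0.085), and -1.01 (SE 0.18, adjusted p = 6.9e-04) when those 4 libraries were fitted alone. Over the 4 TS/A libraries, in the order empty 1, empty 2, Gpr56 label 1 and 2, the fibroblast markers summed to 355, 142, 220 and 159 CPM and the 95 other matrix genes to 2319, 1181, 1736 and 1291 CPM. Both sums rank these libraries as Fn1 does; their part in the Fn1 result was not tested.

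The fibulins bind fibronectin, elastic fibres and basement membrane proteins, and the pair differed in direction. Fbln1 (fibulin-1, ENSMUSG00000006369, chr15:85205949-85286535, plus strand) stood at 2.70 and 1.93 CPM in 4T1 empty, 0.468 and 0.562 in 4T1 Gpr56, 21.1 and 16.7 in TS/A empty, and 16.7 and 13.1 in TS/A labelled Gpr56. It was higher in TS/A with log2 fold changes of 3.04 for the empty vector (SE 0.25, adjusted p = 4.1e-05, edgeR) and 4.87 for the Gpr56 label (SE 0.32, adjusted p = 1.0e-05). Fbln2 (fibulin-2, ENSMUSG00000064080, chr6:91212455-91272540, plus strand) stood at 525 and 496 CPM in 4T1 empty, 502 and 506 in 4T1 Gpr56, 331 and 233 in TS/A empty, and 289 and 290.2 in TS/A labelled Gpr56. Fbln2 was lower in every TS/A library, and the 4T1 values lay within 30 CPM of each other. Its line difference was -0.86 (SE 0.16, adjusted p = 0.0033) with the empty vector and -0.80 (SE 0.16, adjusted p = 0.0039) with the Gpr56 label.

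Sparc, a collagen-binding matricellular glycoprotein (ENSMUSG00000018593, chr11:55394500-55423183, minus strand), stood at 237 and 249 CPM in 4T1 empty and 146 and 177 CPM in 4T1 Gpr56. It stood at 366 and 361 CPM in TS/A empty and 400.1 and 327 CPM in TS/A labelled Gpr56. The TS/A values were above all 4T1 values. The line difference was 0.58 (SE 0.14, adjusted p = 0.010, edgeR) with the empty vector and 1.17 (SE 0.14, adjusted p = 3.1e-04) with the Gpr56 label. Without 4T1 empty library 1 or 2 the first of these did not pass (adjusted p = 0.087 and 0.063).

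Tnc encodes tenascin-C, an anti-adhesive glycoprotein of tumour stroma and healing wounds (ENSMUSG00000028364, chr4:63959785-64047015, minus strand). Its level was 26.7 and 26.5 CPM in 4T1 empty and 20.1 and 21.4 CPM in 4T1 Gpr56, against 0.902 and 0.646 CPM in TS/A empty and 1.41 and 1.06 CPM in TS/A labelled Gpr56. The TS/A libraries held 12 to 37 Tnc reads each and the 4T1 libraries 228 to 565. The line difference was -5.07 (SE 0.23, adjusted p = 1.8e-06, edgeR) with the empty vector and -4.05 (SE 0.21, adjusted p = 3.0e-06) with the Gpr56 label. Postn encodes periostin, a fasciclin-domain partner of tenascin-C and collagen (ENSMUSG00000027750, chr3:54361109-54391037, plus strand). It had 16, 23, 14 and 10 reads in the 4T1 libraries and 0, 0, 1 and 0 in TS/A. Postn was at least 14.05-fold lower in TS/A with the empty vector, at a floor of 3 reads over the group, and 36.3-fold lower with the Gpr56 label (95% counting interval 5.91 to 1491.04); its adjusted p values were 0.0018 and 0.0036 (edgeR). Both matricellular genes were thus at 1.41 CPM or less in every TS/A library, and Postn was at 0.655 to 1.08 CPM even in 4T1.

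Podnl1 encodes a small leucine-rich proteoglycan (ENSMUSG00000012889, chr8:84125989-84132527, plus strand). It stood at 15.9 and 19.6 CPM in 4T1 empty, 7.02 and 6.66 in 4T1 Gpr56, 8.20 and 9.21 in TS/A empty, and 9.71 and 8.26 in TS/A labelled Gpr56. Only the 4T1 empty libraries were above 10 CPM. With the empty vector Podnl1 was lower in TS/A by a log2 fold change of -1.03 (SE 0.18, adjusted p = 0.0023, edgeR), and with the Gpr56 label the difference was 0.39 (SE 0.19, adjusted p = 0.11). Ccdc80, a secreted protein that binds extracellular matrix (ENSMUSG00000022665, chr16:45093402-45128077, plus strand), stood at 0.169 to 0.702 CPM over the 4T1 libraries, from 3 to 15 reads each. In TS/A it stood at 26.8 and 18.0 CPM with the empty label and 22.2 and 13.0 CPM with the Gpr56 label. The line difference was 5.77 (SE 0.50, adjusted p = 5.9e-05) and 4.90 (SE 0.50, adjusted p = 1.1e-04). Reads of its 2 transcripts were allotted differently: the entry Ccdc80_1 had 117 to 342 reads in each TS/A library and 0 in each 4T1 library, where Ccdc80_2 held all of them. For every line difference above, the epithelial and fibroblast marker sums differed between the same libraries, the fibroblast sum mostly through Col1a1. Their part was not tested.

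**Figure D2:**
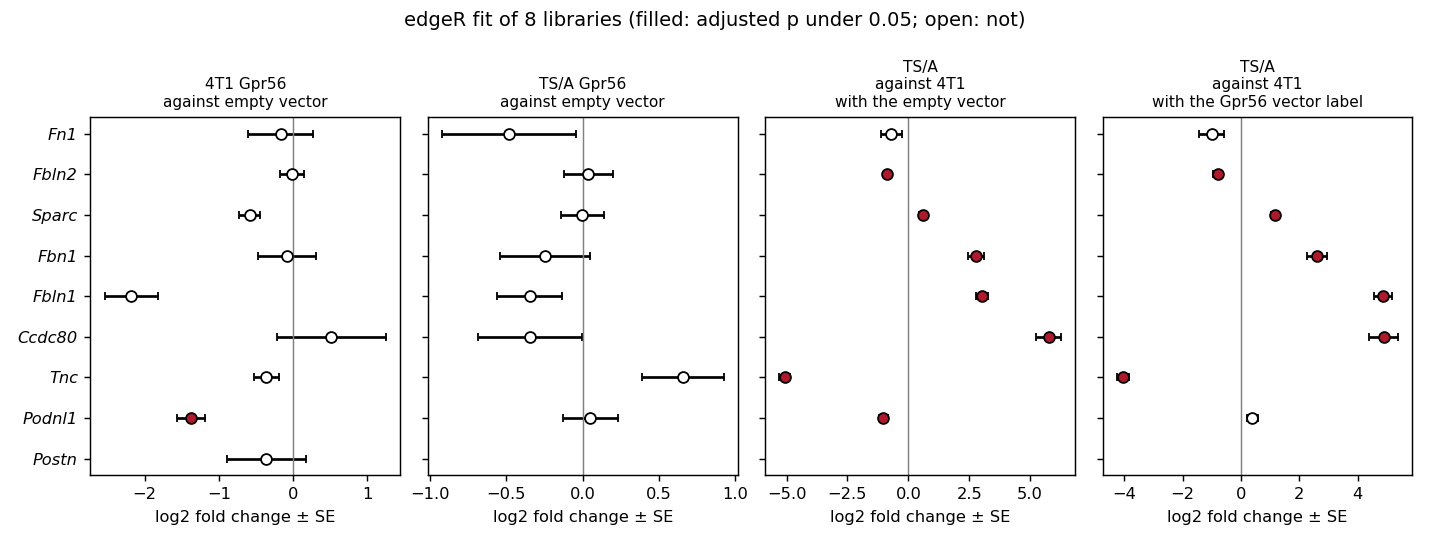
Log2 fold change of each gene (horizontal axis, points) with its standard error (bars) in the edgeR fit of 8 libraries, for the vector comparison in each line and the line comparison at each vector label. Filled points have an adjusted p under 0.05, and Postn is drawn for 4T1 alone because a TS/A group held 0 or 1 reads. Podnl1 is the 1 filled point for the vector in 4T1, none is filled in TS/A, and the line panels are mostly filled.

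The comparison of vectors within 4T1 asked what changed in matrix RNA with the Gpr56 vector. In the fit of all 8 libraries 1 of the 9 genes passed, Podnl1, which fell, where 0.226% of all genes passed and 0.1% passed downward. Podnl1 went from 17.8 ± 2.60 to 6.84 ± 0.258 CPM (SD, n = 2 each), a log2 fold change of -1.37 with SE 0.19 (edgeR, adjusted p = 0.039). Leaving out any 4T1 library or a TS/A library labelled Gpr56 ended that call (adjusted p = 0.11 to 0.44), and leaving out TS/A empty library 1 or 2 gave adjusted p values of 6.3e-04 and 6.7e-04. Groups did not overlap for 5 of the 9 genes, all lower with Gpr56, against 59.9% of all genes. The median of the 9 was -0.36 against 0 over all genes.

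When the 4 libraries of 4T1 were fitted alone, the biological coefficient of variation was 5.47% against 14.7% with all 8, and 5 of the 9 genes fell with Gpr56 while none rose; 22.8% of all genes passed and 11.3% fell. On the log2 scale, Podnl1 fell by 1.37 (SE 0.15, edgeR adjusted p = 1.8e-05) and Fbln1 fell by 2.18 (SE 0.45, adjusted p = 0.0026), from 2.31 ± 0.547 to 0.515 ± 0.0667 CPM. Fbln1 rests on 48, 41, 10 and 6 reads. Sparc fell by 0.59 (SE 0.07, adjusted p = 5.5e-05), from 243 ± 8.45 to 162 ± 21.8 CPM, Tnc fell by 0.36 (SE 0.10, adjusted p = 0.020), from 26.6 ± 0.0845 to 20.7 ± 0.881 CPM, and Fn1 fell by 0.17 (SE 0.06, adjusted p = 0.048), from 1387 ± 19.9 to 1236 ± 103 CPM. The alternative fits include those with each of the 4 libraries left out in turn, and all 5 genes kept their sign over them. The log2 fold change ran from -1.52 to -1.21 for Podnl1, -2.41 to -1.92 for Fbln1 and -0.73 to -0.45 for Sparc. It ran from -0.40 to -0.32 for Tnc and from -0.26 to -0.084 for Fn1. Leaving out a library left 1 in its group, and the calls of Tnc and Fn1 did not hold in all of those fits. In the fit of 4T1 alone, Fn1 also did not pass when library totals replaced TMM factors (edgeR adjusted p = 0.11). With all 8 libraries Fbln1 (adjusted p = 0.082), Sparc (0.16), Tnc (0.49) and Fn1 (0.95) did not pass by edgeR; by DESeq2 and with no filter on low counts Fbln1 (adjusted p = 7.5e-04 and 6.8e-04) and Sparc (0.017 and 0.040) also passed, and with the replicate number as a block Fbln1 did (0.036).

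The other 4 detected genes did not pass in 4T1 in either fit. Fbln2, the abundant fibulin, gave -0.02 (SE 0.16, edgeR) in the fit of all 8 libraries and 0.01 with library totals. Fbn1 gave -0.08 (SE 0.39), Postn -0.36 (SE 0.53) and Ccdc80 0.52 (SE 0.74), each from 52 reads or fewer per library. Beside these changes, the epithelial marker sum was 2132 and 2163 CPM in 4T1 empty and 2985 and 3070 CPM in 4T1 Gpr56. In the fit of 4T1 alone, 7 of 8 epithelial markers rose, where 11.5% of all genes rose. The fibroblast marker sum was 15.8 and 15.5 CPM against 8.78 and 10.1 CPM, with Pdgfra making up most of it and Thy1, Dcn, Lum, Dpt, Col3a1 and Fap at 0. Both immune markers tested in that fit rose with Gpr56, Cd68 from 6.61 ± 0.0428 to 15.4 ± 2.80 CPM (adjusted p = 1.1e-04, edgeR) and Cd14 from 7.50 ± 0.771 to 10.6 ± 0.884 CPM (adjusted p = 0.033), with Adgre1, Cd3e and Tyrobp at 0. With all 8 libraries, 0 of 8 epithelial, 0 of 4 fibroblast and 0 of 2 immune markers tested passed in 4T1 (edgeR). The part of these markers in the result was not tested.

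In TS/A no gene of the 9 passed in the fit of all 8 libraries, where 0.00835% of all genes passed, or in the fit of TS/A alone, where 0% passed; at an unadjusted p under 0.05, edgeR counted 416 genes in the first fit and 115 in the second. All 9 adjusted p values were 1 in the first fit. Fn1 gave -0.48 (SE 0.44), with -1.07 (SE 0.19, adjusted p = 0.0030) without TS/A empty library 2 and 0.54 (SE 0.20, adjusted p = 0.15) without library 1, so its direction follows the empty library kept. Sparc gave -0.001 (SE 0.14) and changed sign over alternatives that moved it by little. Groups did not overlap for 2 of 9 genes, Tnc higher and Fbln1 lower, against 21.6% of all genes. Tnc gave 0.66 (SE 0.27) and Fbln1 -0.35 (SE 0.21). Podnl1, the gene that fell in 4T1, gave 0.05 (SE 0.18), Fbln2 0.04 (SE 0.16), Fbn1 -0.25 (SE 0.30) and Ccdc80 -0.35 (SE 0.34). Postn had 1 read in TS/A and no fold is given. The median of the 9 fitted values was -0.001, and -0.12 without Postn, against -0.01 over all genes.

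The difference between the vector effects of the lines was tested itself. None of the 9 genes passed, where 0.0668% of all genes passed (edgeR, 766 genes at an unadjusted p under 0.05). Podnl1 was nearest, with a difference of 1.42 (TS/A minus 4T1, SE 0.26, adjusted p = 0.23); by DESeq2 it passed (adjusted p = 0.012), as it did with no filter on low counts (0.020). Fbln1 gave 1.83 (SE 0.42, adjusted p = 0.37), Tnc 1.02 (SE 0.32, adjusted p = 0.57) and Sparc 0.58 (SE 0.20, adjusted p = 0.65). The alternative fits include those without TS/A empty library 1 or 2. Over them the difference ran from 1.27 to 1.57 for Podnl1 and from 1.58 to 2.07 for Fbln1. It ran from 0.43 to 0.73 for Sparc and from -0.90 to 0.71 for Fn1. The calls on this difference changed with the TS/A empty libraries. Leaving out either of these left 1 library in its group, and more of all genes passed as well. Those calls are therefore not read as a result about these genes.

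Transcript reads gave a further readout of Fn1, added after the data had been seen. Among reads allotted to the 7 full-length Fn1 transcripts, the share with the EIIIB exon printed above was 3.71%, 2.42%, 2.03% and 2.76% in the 4T1 libraries (empty 1 and 2, then Gpr56 1 and 2). In TS/A it was 6.54%, 9.59%, 6.91% and 8.39% in the same order. Every TS/A share was above every 4T1 share. The means were 2.73% ± 0.717 and 7.86% ± 1.41 (SD, n = 4 libraries per line), with p = 0.0286 by a two-sided exact permutation test, the smallest p that 4 against 4 allows, and 0.171 after Benjamini-Hochberg adjustment over the 6 shares tested. The share thus did not pass the correction. The test pooled the 2 vector groups of each line as 4 exchangeable libraries and did not permute within a vector label. The difference was 5.0 percentage points between the empty libraries and 5.3 between those labelled Gpr56. Within 4T1 the vector groups overlapped, and so did those within TS/A. Scaled by library totals without TMM factors, reads with EIIIB were 23.7 to 51.3 CPM in 4T1 and 38.3 to 88.6 CPM in TS/A, which overlap. Full-length reads without EIIIB were 1145 to 1333 CPM in 4T1 and 361 to 1267 CPM in TS/A on that scale.

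The EIIIA exon, of 270 bases at chr1:71603660-71603929, was in 76.2% ± 1.83 of full-length reads in 4T1 and 78.6% ± 1.95 in TS/A (n = 4 each, exact permutation p = 0.143, adjusted 0.429), and the lines overlapped. The 3 lengths of the variable exon (467, 392 and 107 bases left in it) and the share of the second Sparc transcript gave exact permutation p values of 0.29 to 0.91. The transcript with EIIIA and without EIIIB that gave the skipped sequence held 62.1% of all Fn1 reads. No source used here says how reads shared by transcripts were divided, and some allotments swung between replicates: the entry Tnc_1 had 99 and 0 reads in 4T1 empty and 234 and 0 in 4T1 Gpr56, and Fn1_2 had 717 and 0 in TS/A empty. The EIIIB share carries that limit. The entries Fbln1_1 and Fbln1_2 held similar reads in TS/A (124 to 272 and 159 to 243 per library), and 1 entry held 99.2% of Fbln2 reads.

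**Figure D3:**
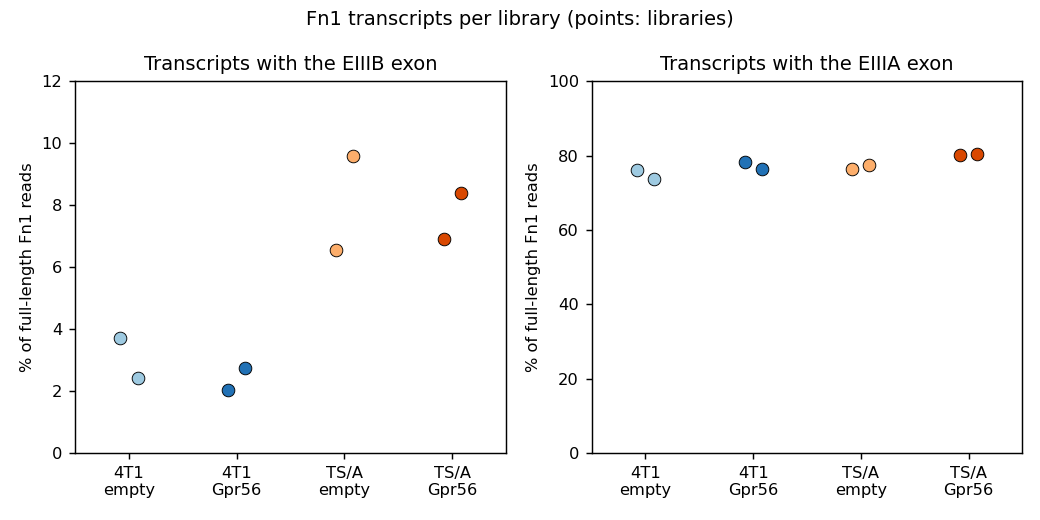
Share of reads of full-length Fn1 transcripts allotted to transcripts with the EIIIB exon (left, axis from 0 to 12%) and the EIIIA exon (right, axis from 0 to 100%), per library, by line and vector label. Points are libraries. The EIIIB shares lie between 2.03% and 3.71% in 4T1 and between 6.54% and 9.59% in TS/A, and the EIIIA shares overlap.

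Other matrix glycoproteins and secreted proteoglycans were followed in a list of 95 genes, of which 71 had a read and 36 were tested. Between the lines, 10 of the 36 were higher and 8 lower in TS/A with the empty vector, and 11 were higher and 10 lower with the Gpr56 label, with medians of 0.23 and 0.11 (the same with genes at 0 reads set to their bound) against 0.01 and -0.002 over all genes. Over all genes, the shares higher and lower were 23.9% and 23.5% in the empty libraries, and 26.5% and 27.4% in those labelled Gpr56, so these counts lie near the background. Nid1, nidogen of basement membranes, was higher in TS/A by 8.28 and 7.61 on the log2 scale (SE 0.38 and 0.37, edgeR), and Vcan, the large proteoglycan versican, by 6.33 and 5.36 (SE 0.34 and 0.33). The 4T1 groups held only 23 and 26 Nid1 reads and 9 and 11 Vcan reads. Efemp1, a fibulin family member, rested on 6 and 1 reads in the 4T1 groups against 6237 and 5024 in TS/A. Emilin1, an elastic fibre glycoprotein, was higher by 5.16 with the empty vector and 3.44 with the Gpr56 label (SE 0.97 and 0.91), from 6 and 11 reads in the 4T1 groups. Adamtsl4, a microfibril protein, was higher by 3.08 and 2.40 in the same order (SE 0.58 and 0.58). Thbs1, thrombospondin-1, was lower in TS/A, with differences of -2.43 and -2.43 (SE 0.39 and 0.39), as was Agrn, the heparan sulfate proteoglycan agrin, with -1.56 and -2.02 (SE 0.20 and 0.21). Matn2 was lower in TS/A with differences of -1.20 and -0.52, and Spp1 (osteopontin) with -1.05 and -0.82. Ltbp4 and Hspg2 (perlecan) were lower with the Gpr56 label, with differences of -1.26 and -0.93. With the empty vector these 2 gave -0.70 and -0.69 and did not pass (adjusted p = 0.052 and 0.10, edgeR). Apart from those, the adjusted p values among these named genes were 0.037 or lower.

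**Figure D4:**
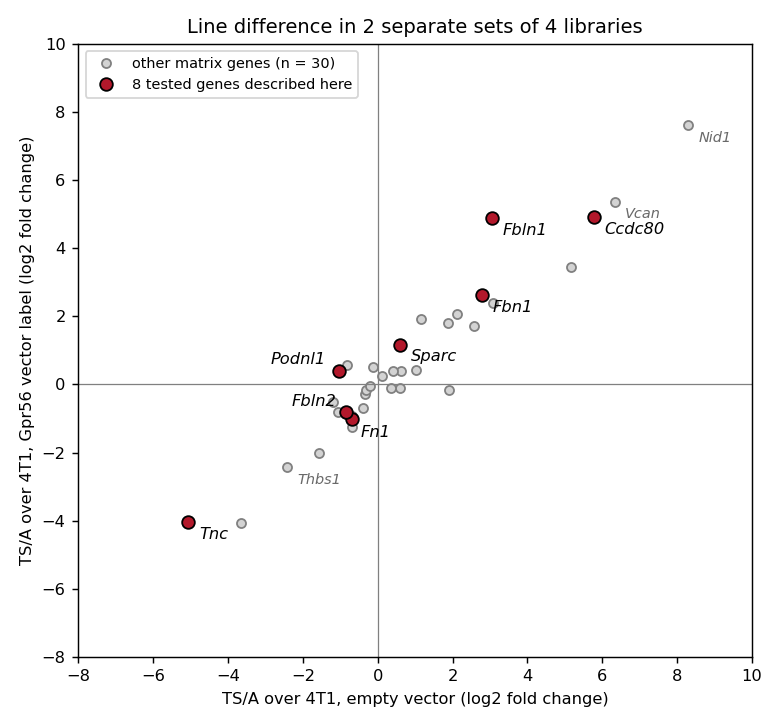
Log2 fold change of TS/A over 4T1 with the empty vector (horizontal axis) and with the Gpr56 label (vertical axis), which share no library, for 8 of the genes described (filled) and 30 of 36 tested other matrix genes (grey). Postn and 6 others with a group under 3 reads are left out. Fbn1, Fbln1, Ccdc80 and Sparc lie to the upper right with Nid1 and Vcan, Tnc lies to the lower left with Thbs1, and Podnl1 changes sign.

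For the vector, 0 of the 36 other matrix genes passed in 4T1 and 0 in TS/A with all 8 libraries (medians -0.10 and -0.22, against 0 and -0.01 over all genes). In the fit of 4T1 alone, 4 of 28 rose and 6 fell, where 11.5% of all genes rose and 11.3% fell. The latent TGF-beta binding proteins split, Ltbp3 and Ltbp4 rising by 0.58 and 0.43 on the log2 scale (SE 0.07 and 0.09, edgeR) while Ltbp1 fell by 0.65 (SE 0.06). Agrn rose by 0.36 (SE 0.06), and Matn2, Thbs1 and Igfbp7 fell by 0.57, 0.47 and 0.28 (SE 0.10, 0.05 and 0.08; adjusted p of all 7 genes 0.016 or lower). Of 14 cell surface proteoglycans, 11 were tested with all 8 libraries, and 0 passed for the vector in 4T1 and 0 in TS/A (edgeR). In the fit of 4T1 alone, 10 were tested and 3 rose and 4 fell, against the same shares of all genes. Gpc1, Cd44 and Sdc1 rose by 0.22, 0.22 and 0.18. Tgfbr3 (betaglycan), Gpc4, Sdc2 and Sdc3 fell by 1.90, 1.33, 0.62 and 0.58. Adjusted p values of these genes were 0.048 or lower in that fit (edgeR). Between the lines, 4 of 11 surface proteoglycans were higher and 3 lower in TS/A with the empty vector, against 23.9% and 23.5% of all genes. With the Gpr56 label 3 were higher and 3 lower, against 26.5% and 27.4%. Tgfbr3 (log2 1.76 and 3.43) and Sdc4 (0.52 and 0.33) were higher at both labels, and Sdc3 (-1.10 and -1.12) was lower. Cd44, higher, and Sdc2, lower, passed only with the empty vector, and Sdc1, lower, only with the Gpr56 label. The glypican genes Gpc6 and Gpc4 were each at 0 reads in 1 line. Gpc1 did not pass, at 170 ± 2.70 CPM in 4T1 empty and 211 ± 78.3 in TS/A empty (adjusted p = 0.31, edgeR) and 199 ± 3.60 against 192 ± 41.3 CPM with the Gpr56 label (0.89). Gpc6 had 0 reads in all 4T1 libraries against 494 and 421 in the TS/A groups, at least 152-fold and 92.9-fold higher, and Gpc4 had 0 reads in all TS/A libraries against 727 and 243 in the 4T1 groups, at least 262-fold and 122-fold lower.

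The genes most like Fn1 in their course over the 8 libraries, by the root mean square difference of mean-centred log2 CPM, were Ltbp2 (0.14), Nfix (0.16) and Hoxa2 (0.17). Ltbp2, a microfibril-associated protein, shared the wide gap within TS/A empty, at 65.3 ± 48.6 CPM against 105 ± 6.77 in 4T1 empty. Those most like Sparc were Cdk2ap1 (0.077), Ccdc173 (0.10) and Mt1 (0.11), and those most like Podnl1 were 2610318N02Rik (0.18), Plxna4 (0.21) and Rex2 (0.21). This likeness is a description over 8 libraries that share line and depth. Libraries did not mark strand, and 3 of the 10 genes overlap a gene on the opposite strand in GENCODE M21: Gm9913, at Fbn1, had 11 reads over the 8 libraries, and Apol7d at Fn1 and 8030451A03Rik at Tnc were not used here.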

How the data were processed

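Each deposited file lists 65042 transcripts with its read count and an RPKM value, both computed by the authors, per the file headers. The authors' aligner, counting program, build and annotation: not given in the sources used here. Per the labels' protocols, the RNeasy Mini Kit gave the RNA and TruSeq (v2) the libraries. The deposited counts were summed by gene name, and deposited RPKM was used only to order genes within a group and to repeat the exon shares. Of the transcript identifiers, 65023 were found in GENCODE M21, which gives the coordinates.

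Tests used edgeR 4.0.16 in R 4.3.3 (filterByExpr with a minimum count of 10, TMM, glmQLFit and glmQLFTest) in 1 fit of 8 libraries with 4 group means and Benjamini-Hochberg adjustment over 11970 genes at 0.05. CPM is TMM-scaled, except that sums over lists and markers, the reads with and without EIIIB and the read floors use library totals. SE is the absolute log2 fold change over the root of F. Fits with 1 library in a group assume that it varies like the other groups. Scripts were tested on simulated data. Exact permutation tests used scipy 1.17.1. Alternatives were other scaling, DESeq2 1.42.0, limma 3.58.1 (voom), other filters, a replicate block, GENCODE genes, 4 libraries alone and each library left out.

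The 10 genes, the lists and the tests were chosen with earlier results of these data known. Named genes were the 10, Adgrg1 and, per comparison, up to 4 list members each way past the threshold with the largest change and at least 5 CPM, taken from the fit of 1 line alone where none passed; the 3 genes nearest in pattern to Fn1, Sparc and Podnl1; genes singled out for overlap, transcripts and markers were chosen after their values were seen. Exon shares, and fits of 1 line with library totals or with a library left out, were added after the data were seen. Part of the immune marker list is not reported here.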

Additional observations from a re-analysis of the deposited data

How the results depend on the processing

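For the 5 comparisons and 9 tested genes, the line differences of Fbn1, Fbln1, Tnc, Postn and Ccdc80 passed under every alternative run that tested them. That of Fbln2 was lost with the empty libraries alone and library totals (adjusted p = 0.055), and Fn1 and the counts below depended on the setting; the cause was not tested. For the vector in 4T1 the number of genes passing, 27, became 260 with DESeq2, 57 with voom, 266 without a filter, 2588 with 4T1 alone, 2824 with 4T1 alone and the block, and 2666 with 4T1 alone and library totals. It ran from 0 to 1285 over libraries left out, and from 1403 to 2748 within 4T1 alone. Of the 9 genes, 1 passed, against 3 with DESeq2, 3 without a filter, 2 with the block (Fbln1 added), 5 with 4T1 alone with or without the block, 4 with 4T1 alone and library totals, 0 to 3 over libraries left out and 3 to 5 within 4T1 alone. For TS/A the 1 gene became 0 with library totals, the block, TS/A alone, or TS/A alone with library totals, 10 with DESeq2, 8 without a filter, 26 with TS/A alone and the block, 0 to 2933 over libraries left out and 4 to 1140 within TS/A alone; of the 9 genes 0 passed, or 1 (Fn1) without TS/A empty library 2. Between the lines, 5674 genes became 3713 with the empty libraries alone and 3432 with library totals added, and ranged from 3335 to 7853 over libraries left out, and 6462 ranged from 4237 (without 4T1 Gpr56 library 1) to 8536. For the difference of vector effects, 8 genes became 4 with library totals, 65 with DESeq2, 0 with voom, 60 without a filter, 3 with the block and 0 to 2391 over libraries left out; of the 9 genes 0 passed, 1 with DESeq2 or without a filter and 0 to 4 over libraries left out. Uncalled values near 0 changed sign: Fbln2 in 4T1 was 0.014 with library totals in both fits, and Sparc in TS/A 0.0019 with the 10 CPM filter. Over libraries left out, the vector effect in 4T1 ran from -0.39 to 0.35 for Fbn1, -0.060 to 0.025 for Fbln2 and -0.11 to 1.75 for Ccdc80. In TS/A it ran from -1.07 to 0.54 for Fn1, -0.58 to 0.21 for Fbn1, -0.19 to 0.31 for Fbln2, -0.15 to 0.14 for Sparc, 0 to 2.83 for Postn (1 read), -0.070 to 0.16 for Podnl1 and -0.95 to 0.15 for Adgrg1. The difference of vector effects ran from -0.90 to 0.71 for Fn1, -0.59 to 0.29 for Fbn1 and -0.17 to 0.33 for Fbln2. The EIIIB difference of 5.13 points was 4.94 from RPKM and 4.55 to 5.57 over libraries left out. The labels give replicate numbers without a shared source; correlations of same-numbered deviations were 0.38 between the TS/A groups and -0.10 to 0.064 between the other pairs of groups, so pairing was not taken as shown. In TS/A, 3 reads correspond to 0.116 to 0.153 CPM, which limits Postn.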
